A study of Mus musculus with 8 samples.

Results

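A stretch of mouse chromosome 4 between 41 and 43 Mb (mm9 coordinates) holds a block of repeated, mostly predicted genes around the chemokine genes Ccl21 and Ccl27 and the interleukin 11 receptor genes. Every row of the deposited expression table that starts in this window was taken, whatever its level, apart from Kif24, which gave 83 of 22744 genes. The window was picked because predicted genes in it, led by Gm5859, Gm10599 and Gm17167, had more reads in Dmrt6 null than in wild-type testes. Null against wild-type differences of the 83 genes are therefore given as a description, and where counts of genes past a threshold include genes of the window, nothing is read from them. Of the 83, 56 carry provisional symbols (Gm numbers, clone names or a bare Ensembl ID) and 27 carry gene names.

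The expression data came from testes of mice at postnatal day 8 (P8), 3 libraries of Dmrt6 null and 3 of wild-type (WT) genotype, all on a C57BL/6 background. Dmrt6, listed in the table as Dmrtb1, encodes a DNA-binding protein of the DMRT family made in male germ cells, and the study asked what the loss of DMRT6 does as spermatogonia leave mitosis for meiosis. The labels call the null genotype Dmrt6 Null and do not describe the allele. Binding of DMRT6 was mapped in 1 chromatin immunoprecipitation (ChIP) library, with 1 input library for comparison, made from the testis of adult wild-type mice whose background is given as C57BL/6, Mixed. Replicates are described as biological, but which animals or pools gave them is not said.

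Tandem duplication leaves neighbouring genes so alike that a short read can match several of them, and a count for one copy then depends on how such reads were assigned. CCL21 is a chemokine of lymphatic endothelium and lymphoid stroma that draws cells bearing the receptor CCR7. CCL27 is a skin chemokine that acts through CCR10. The interleukin 11 receptor alpha chain and the ciliary neurotrophic factor receptor both work together with the signalling subunit gp130, encoded by Il6st. In mice, Ccl21, Ccl27 and the interleukin 11 receptor gene are known to occur in several copies, and their number differs between strains.

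How alike the copies are is visible just ahead of their start sites. The next 2 sequences, from the RefSeq promoter table (build GRCm38.p6, whose positions differ from those of the expression table), are the bases upstream of Gm13304 (chr4:42114537-42114785, plus strand) and of Ccl21a (chr4:42773992-42774240, minus strand). They are shown because the genes belong to the same chemokine family and are nearly identical here, although their reads, given further on, were not near-identical by the rule used for copies. Capitals mark the bases that differ.
Gm13304: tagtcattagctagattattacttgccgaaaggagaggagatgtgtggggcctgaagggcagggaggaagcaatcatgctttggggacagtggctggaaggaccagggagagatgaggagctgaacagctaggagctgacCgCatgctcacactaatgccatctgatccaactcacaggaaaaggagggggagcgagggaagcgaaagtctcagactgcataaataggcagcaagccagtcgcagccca
Ccl21a: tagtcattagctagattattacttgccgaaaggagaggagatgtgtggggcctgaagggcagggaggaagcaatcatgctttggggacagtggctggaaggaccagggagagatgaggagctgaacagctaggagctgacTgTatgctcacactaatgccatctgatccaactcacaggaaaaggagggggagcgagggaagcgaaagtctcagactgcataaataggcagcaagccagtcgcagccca
In the longer RefSeq windows, 296 of 299 bases of these 2 genes were identical. Gm13304 and Gm10591 shared all 300 bases, and Gm13306 and Ccl27b shared all 300. Gm13305 and Il11ra2 shared all 299 bases compared, so the next sequence (Il11ra2, chr4:42665764-42666013, minus strand, GRCm38.p6) serves for both genes, whose nearest ChIP peaks are described further on.
Il11ra2: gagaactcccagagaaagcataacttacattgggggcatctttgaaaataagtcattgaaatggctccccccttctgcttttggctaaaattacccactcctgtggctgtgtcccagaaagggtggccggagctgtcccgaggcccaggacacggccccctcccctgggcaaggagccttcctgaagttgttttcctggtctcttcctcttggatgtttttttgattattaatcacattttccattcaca
Ccl27a and Ccl27b, by contrast, had 163 of 239 aligned bases in common (68.2%). RefSeq promoters were matched by symbol for 28 of the 83 genes.

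The libraries held 26.2, 27.4 and 26.3 M reads in Null 1, 2 and 3, and 23.8, 29.0 and 27.5 M reads in WT 1, 2 and 3, counted over the whole table. At that depth 3 reads, the most that a count of 0 allows, correspond to 0.103 to 0.126 CPM (counts scaled to library size), a limit for counting error only. Dmrtb1, the targeted gene, had 14, 25 and 26 reads in Null and 194, 510 and 254 in WT. Those values were in keeping with the labels in all 6 libraries (log2 difference -3.78, SE 0.36), although limma's adjusted p was 0.0516. Dmrtb1 lies on the same chromosome as the window, at 107348895 to 107356835. Any part of chromosome 4 sequence inherited with the null allele in the differences below was not tested. Null 3 stood apart, with Pearson correlations across genes of 0.9616 to 0.976 with the other libraries, against 0.9787 to 0.9908 among the others. Of the 11 cell type marker lists, the 8 germ cell genes summed to 1440 to 1600 CPM in Null and 1350 to 1500 in WT, and all 8 were detected above the testing floor, as were all 5 Sertoli cell genes. The red blood cell genes summed to 711 to 1250 CPM in Null and 1470 to 1770 in WT, and the epididymis genes to 34.2 to 113 CPM in Null and 0.0728 to 103 in WT. No marker gene passed the adjusted threshold of 0.05, and the part of cell makeup in any difference below was not tested. In whole testis, fewer cells of a type and less RNA per cell cannot be told apart.

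Genes were tested where their mean was at least 0 log2 CPM. That floor was met by 16634 genes, 49 of the 83 among them (28 provisional, 21 named). Over all tested genes limma called 1 gene higher in Null at an adjusted p below 0.05, a share of 0.00601%, and 0 lower, 0.0%; 578 had an unadjusted p below 0.05, and voom on recovered reads also called 1. The 1 called gene was Gm5859, which passed the floor through its Null libraries and whose values led to the choice of the window, so the call is no test of the window. With array weights, which weigh libraries by their scatter, limma called 136 genes, 10 of them in the window. Without Null 1 no gene was called, and without Null 3 limma called 5, of which 3 were Gm5859, Gm10599 and Gm17167, the genes on which the window was chosen. The 34 genes under the floor, 41% of the 83, had 13 to 373 reads summed over the 6 libraries.

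Gm5859 (ENSMUSG00000073879, chromosome 4, 42107582 to 42109905, plus strand), a predicted gene with no role given in the files, had 229, 269 and 154 reads in Null, against 9, 7 and 9 reads in WT. Its mean level was 8.14 ± 1.95 CPM in Null and 0.315 ± 0.0701 CPM in WT (SD, n = 3 each), a log2 difference of 4.65 (SE 0.30). The lowest Null library was far above the highest WT library.

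Gm10599 (ENSMUSG00000082984, 41761141 to 41763463, plus strand) spans 2323 bp, nearly the same length as Gm5859 at 2324 bp. It had 211, 256 and 100 reads in Null and 10, 6 and 15 in WT, a log2 difference of 4.16 (SE 0.46). Gm17167 (42077721 to 42106036, plus strand) had 182, 149 and 48 reads in Null and 9, 10 and 21 in WT, a log2 difference of 3.13 (SE 0.53). In all 3 genes Null 3 was the lowest Null library and still lay above every WT library. Gm17167 overlaps 3 other genes of the window, so its reads and theirs may partly be the same.

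Gm10597 and Gm10594, each 426 bp long and on either side of Gm5859, had the same reads in every library: 83, 98 and 47 in Null and 11, 10 and 21 in WT (log2 difference 2.44, SE 0.39). The table therefore gives 1 measurement under 2 names. Gm10593, a row of 34561 bp, had 84, 148 and 59 reads in Null and 40, 52 and 36 in WT (log2 difference 1.10). Gm3892 and the longer of 2 rows named Gm7819 nearly repeated it, with 83 to 84, 149 and 63 to 68 reads in Null and 44, 51 to 52 and 35 to 38 in WT. The groups did not overlap in any of these rows, but the lowest Null library was closer to the highest WT library than in Gm5859.

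The other provisional genes named for the size of their difference had narrower gaps. Gm12394 had 35, 63 and 37 reads in Null and 16, 24 and 28 in WT (log2 difference 0.98). Gm2542 had 102, 156 and 83 reads in Null and 48, 59 and 67 in WT (0.94), and its copy Gm13298 had 102, 156 and 84 in Null and 49, 65 and 71 in WT (0.86). Null was above WT in each of these without overlap, with Null 2 the highest library.

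Gm12429 had 66, 100 and 58 reads in Null and 36, 41 and 43 in WT (log2 difference 0.87). It lies within Gm12394 on the same strand, so reads of both rows may partly be the same. Gm10930 had 262, 337 and 239 reads in Null and 142, 222 and 220 in WT (0.55), and Gm10590 differed from it by at most 3 reads in any library. On the CPM scale neither pair of groups overlapped. Gm10598 had 42, 66 and 28 reads in Null and 30, 23 and 31 in WT (0.63), and 4933409K07Rik had 40, 66 and 23 in Null and 29, 23 and 29 in WT (0.56). In these last 2 genes Null 3 lay within the WT range in CPM, so the groups overlapped.

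At the other end, BC049635 had 46, 63 and 70 reads in Null and 66, 68 and 87 in WT (log2 difference -0.30), and N28178 had 223, 322 and 241 in Null and 316, 320 and 280 in WT (-0.23). Both sets of libraries overlapped. Both genes lie beyond Ccl21a, the last row with a near-identical copy by the rule used here, towards Vcp. BC049635 is named Fam205c in the reference symbols, where Gm12429 is Fam205a1 and Gm13298 is Fam205a4. N28178 is named Phf24 there.

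**Figure D1:**
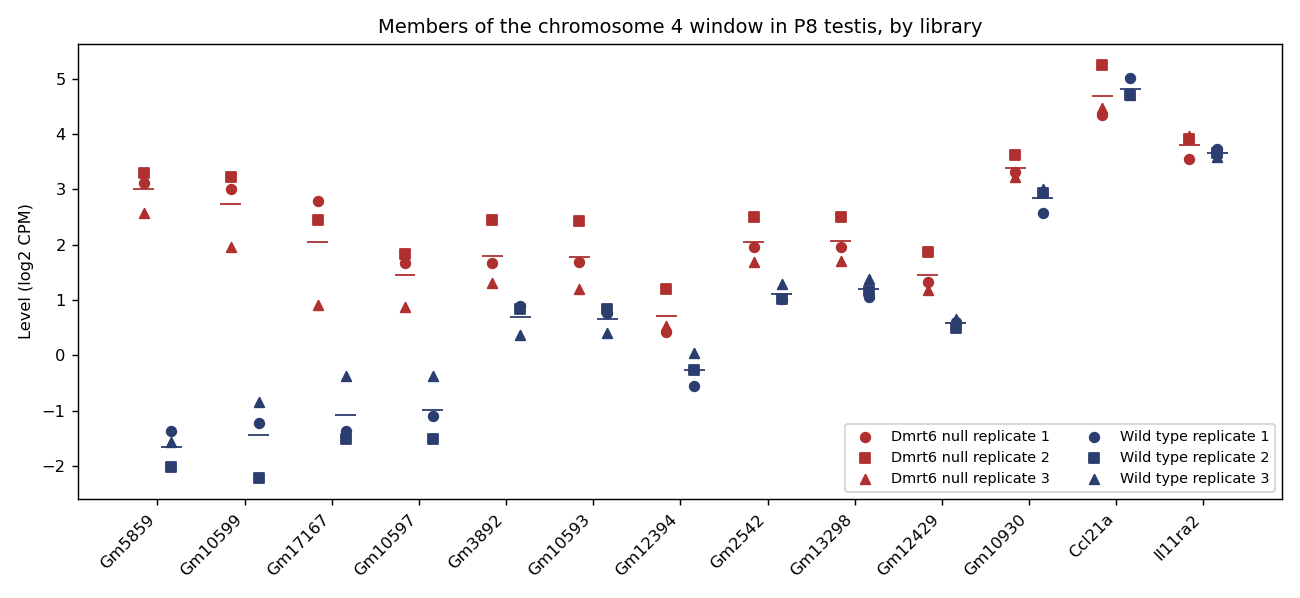
Level of 13 genes of the window (log2 CPM, vertical axis) in each library, Dmrt6 null (red) left of wild type (blue), with a symbol per replicate and a short line at the mean of 3. Gm5859, Gm10599, Gm17167 and Gm10597 are separated by wide gaps, Gm10930 by a narrow one, and Ccl21a and Il11ra2 overlap.

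Several genes under the floor also had wide differences, and they were singled out here after their values were seen. Gm13300 (42104736 to 42107058, plus strand), the next row upstream of Gm5859 and 2323 bp long, had 125, 152 and 87 reads in Null and 2, 3 and 4 in WT. Gm13301 had 94, 131 and 57 reads in Null and 0, 4 and 0 in WT. Gm17081, the next row downstream of Gm5859, had 94, 74 and 23 reads in Null and 2, 6 and 0 in WT. In each, the lowest Null library was above every WT library, and the mean over all 6 libraries was below the floor. Gm13300 and Gm13301 both overlap Gm17167 on the same strand, so their reads may partly be those of Gm17167.

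The same held some way upstream, around Gm10599. Gm13302 had 126, 139 and 46 reads in Null and 1, 1 and 5 in WT. Gm10600 had 49, 29 and 31 reads in Null and 0, 0 and 1 in WT. Gm10601 had 33, 43 and 17 reads in Null and 3, 0 and 14 in WT. Each again had every Null library above every WT library, though in Gm10601 the gap between Null 3 and WT 3 was 3 reads, about the size of counting noise.

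Gm10595 was the only one of the 83 with no read in any WT library, and with 3, 9 and 3 reads in Null it was itself at the limit of detection, so no fold is given.

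Counted over all 83 genes, 29 had every Null library above every WT library, where 5.07% of all rows did, and 1 (Galt) had every Null library below, where 5.73% did. Among the 49 tested genes the counts were 17 above, beside 5.06% of tested genes, and 1 below, beside 6.02%. A log2 difference of at least 1 was seen in 23 of the 83, beside 4.01% of all rows, and in 8 of the 49 tested, beside 0.409%. Among the tested genes counted here, Gm5859, Gm10599 and Gm17167 passed the floor through their Null libraries (WT means -1.65, -1.43 and -1.08 log2 CPM). So did Gm10597 and Gm10594 (-0.99 each) and Gm12394 (-0.26). A difference of at most -1 was seen in 1 of the 83 (Gm12407, under the floor), beside 3.44%, and in 0 of the 49, beside 0.108%. Since the window was chosen on this contrast, these counts describe it and support nothing further. Both criteria, no overlap and a difference of at least 1, were met by 19 genes, all with provisional symbols, 8 of them tested. By the rule for copies given further on, 9 of the 19 had a near-identical copy in the window. That rule compares reads and lengths and no sequence, so the others are not shown to be single copies.

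The reads of these 19 genes, some of which are near-identical or overlap, summed to 1632, 2035 and 878 in Null and 200, 212 and 236 in WT, or 62.1, 73.7 and 34.1 CPM in Null and 8.39, 7.25 and 8.60 CPM in WT. Null 3 was the lowest Null library in 17 of the 19, and the highest was Null 2 in 16 and Null 1 in 3. The WT sums were close to one another, and the Null sums were spread more widely.

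Along the chromosome the 19 genes ran from Gm17378 to Gm10592 (41751291 to 42600570), a span of 0.849 Mb with 44 of the 83 genes, 40 of them provisional. The median log2 difference was 1.02 over these 44 genes, 0.02 over the 25 genes before them (Aqp3 to Gm12407) and 0.17 over the 14 after them (Gm2163 to Vcp). The ends of the interval were set by these same differences, so the contrast between the medians is no finding. Within it, 11 of the 19 lay in 2 tight runs. One comprised Gm17378, Gm10601, Gm10600, Gm10599 and Gm13302, whose reads summed to 437, 501 and 201 in Null and 16, 7 and 39 in WT. The other comprised 6 genes from Gm17167 to Gm17081, Gm5859 among them, with 727, 784 and 372 reads in Null and 22, 30 and 34 in WT. In that run Gm17167 overlaps Gm13301, Gm10595 and Gm13300, so the sum may count some reads more than once. Between these runs, genes with little difference (Ccl21b, Gm13304, Gm13306 and Gm13305) lay among genes of wider difference (Gm10597, 2.44; Gm10596, 3.29; Gm3892, 1.10).

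**Figure D2:**
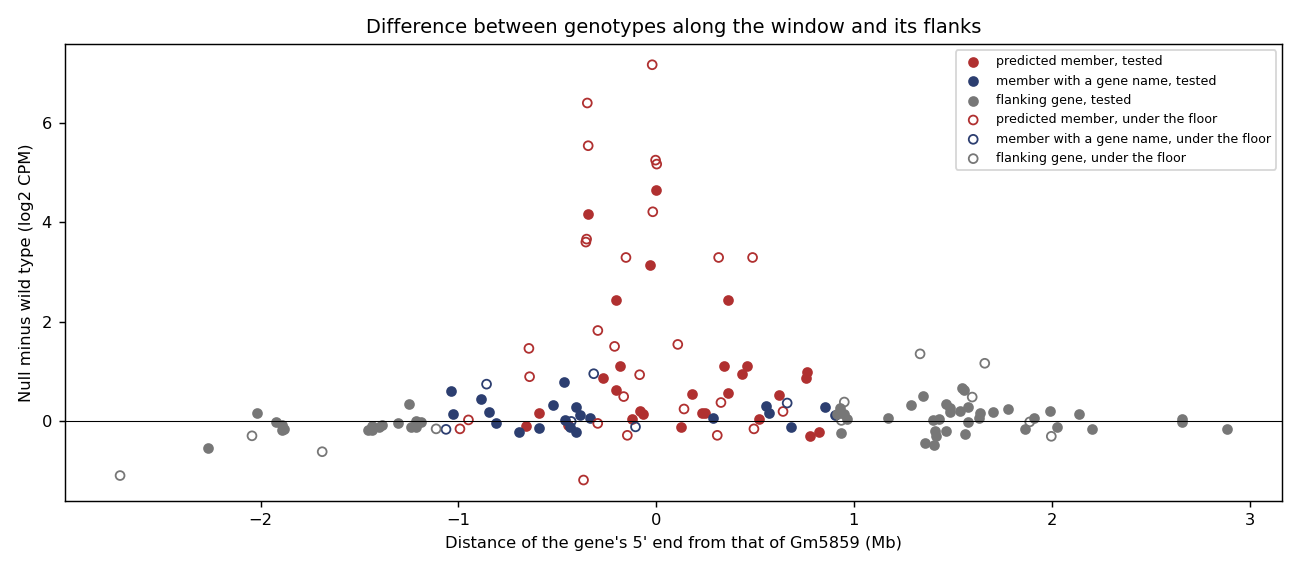
Null minus wild-type difference (log2 CPM, vertical axis) of each gene against the distance of its 5′ end from that of Gm5859 (Mb), with filled points for tested genes and open points for genes under the floor; provisional genes of the window are red, named genes blue and flanking genes grey. The points above 2 are all provisional genes, within 0.849 Mb, and the flanking genes scatter about 0.

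The flanks played no part in choosing the window. Of 54 tested genes starting within 2 Mb on either side, limma called 0, with a smallest adjusted p of 0.755 and 2 at an unadjusted p below 0.05; voom and every other fit tried also called 0. Over all 16634 tested genes the counts were 1 and 578, so a count of 0 among 54 says little. Every Null library was above every WT library in 2 of the 54, beside 5.06% of tested genes, and below in 6, beside 6.02%. The median log2 difference of the 54 was -0.02, beside 0.01 for all tested genes. On the side of lower coordinates 2 of 17 tested genes were positive and 15 negative (median -0.10), led by Gm12387 (-0.55, SE 0.19) and Aptx, a DNA strand-break repair gene (-0.19, SE 0.11). On the other side 24 of 37 were positive and 13 negative (median 0.05), and the smallest p-values were those of E130306D19Rik (-0.49, SE 0.16) and Stoml2, which encodes a mitochondrial inner membrane protein (-0.24, SE 0.11). Limma's adjusted p was 0.755 for each of these 4 genes. The genes at the edges of the window showed no step: Aqp3, the first inside, had 4, 4 and 2 reads in Null and 2, 6 and 4 in WT, and Aqp7, the last outside, had 8, 4 and 9 in Null and 33, 3 and 4 in WT. At the other edge the difference was 0.11 for Vcp, the last inside, and 0.13 for Fancg, the first outside. Kif24, left out of the 83, had 560, 506 and 570 reads in Null and 456, 669 and 623 in WT (-0.07).

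Much of the block was counted more than once. Rows were grouped as near-identical when their reads agreed within 10% or 3 reads in every library, their lengths within 10%, and they lay within 5 Mb of each other on a chromosome. By that rule 24 of the 77 genes with at least 20 reads (31.2%) fell into 9 groups, against 234 of 21380 genes elsewhere in the table (1.09%). Among genes with at least 20 reads, 5 of the window had reads identical to another row in all 6 libraries, and 16 of the 83 shared 1 of 6 Entrez gene numbers with another. How reads matching several copies were assigned is not given in the sources used here, so the copies are not independent measurements. In addition, 45 of the 83 overlap another gene of the window, 39 of them one on the opposite strand, and whether counting used strand is not given.

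In some groups of copies the libraries of the 2 genotypes overlapped, and in others they did not. No row of these groups was called in the main fit, and the window was chosen on this contrast, so the split is a description. Gm17378, Gm10596, Gm10929 and Gm10592, each about 927 bp, had 17 to 18, 34 to 36 and 7 reads in Null and 2 to 4, 0 and 4 in WT. Their log2 differences were 3.29 to 3.60. The groups of Gm10597, of Gm3892, of Gm13298 and of Gm10930, described above, also had every Null library above every WT library. The 4 groups that hold Ccl21, Ccl27 and Il11ra2 sequence overlapped between genotypes, with log2 differences between -0.12 and 0.19. Agreement within a group was set by the grouping rule.

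**Figure D3:**
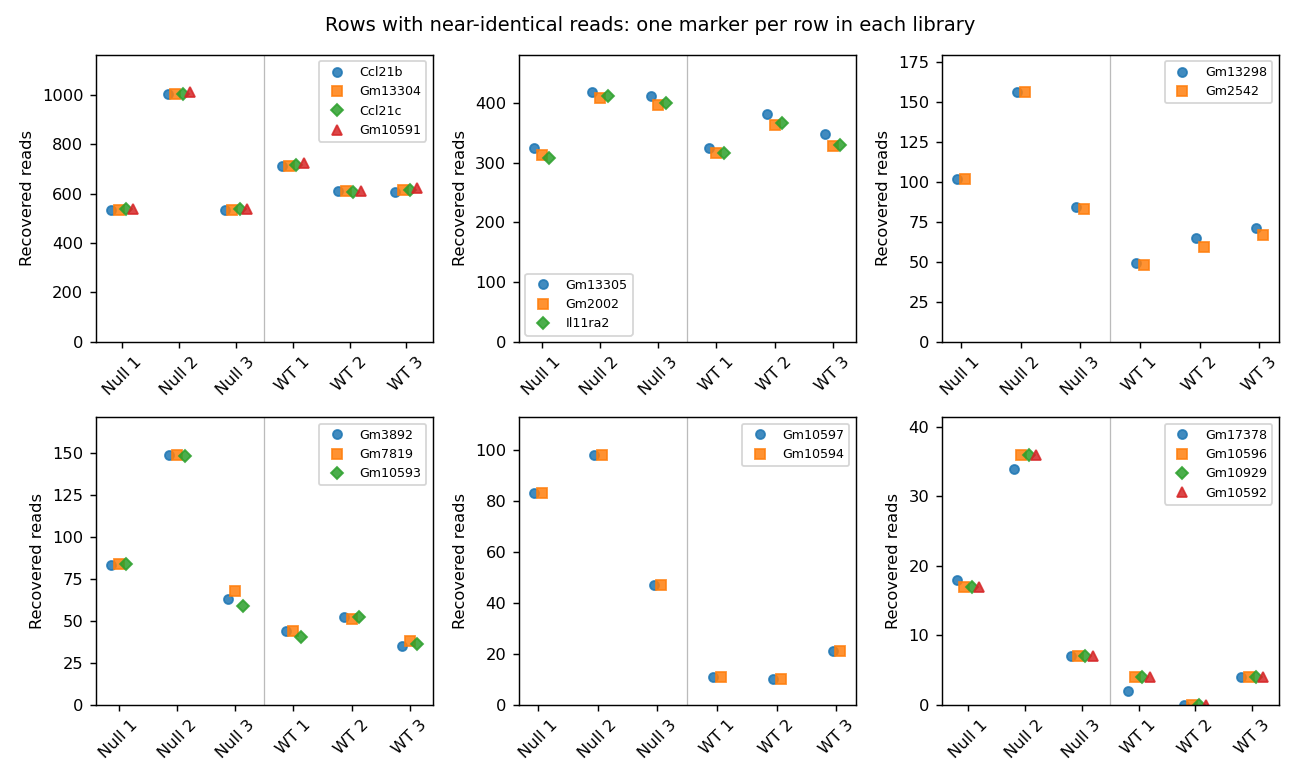
Recovered reads (vertical axis, from 0) of 6 groups of near-identical rows in each library, Null left of the grey line and WT right of it, with a marker per row. Markers of a group nearly coincide in every library; the Ccl21b and Il11ra2 groups overlap between genotypes and the other 4 do not.

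Summed over the 56 provisional genes, the level was 231, 318 and 214 CPM in Null and 204, 177 and 182 CPM in WT. The means were 254 ± 56.0 CPM in Null and 188 ± 14.4 CPM in WT (SD, n = 3 each), a ratio of 1.35. Null 2 contributed most, and without it the log2 ratio was 0.24 in place of 0.44. Provisional copies of Ccl21, Ccl27, Ccl19 and Il11ra2 made up a large part of this sum. With the 8 rows that share an Entrez number with a named gene left out, a choice made after the data were seen, the sum was 136, 167 and 111 CPM in Null and 76.8, 75.3 and 78.6 CPM in WT, a ratio of 1.79.

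The Ccl21 genes of the window overlapped between genotypes. Ccl21a, which in mice encodes the lymphoid form of CCL21, had 531, 1052 and 568 reads in Null and 767, 767 and 713 in WT (log2 difference -0.12, SE 0.24). Ccl21b had 533, 1003 and 534 reads in Null and 711, 609 and 608 in WT (0.05), and Ccl21c had 536, 1004 and 537 in Null and 716, 606 and 615 in WT (0.05). In each, Null 2 was above all WT libraries in CPM and Null 1 was below them, so the Null libraries were split. The 4 lymphatic endothelial markers summed to 135, 141 and 122 CPM in Null and 151, 144 and 154 CPM in WT, and their part in the Ccl21 reads was not tested. Gm1987, which shares an Entrez number with Ccl21a, differed from it by at most 7 reads in any library. Gm13304, grouped by its reads with Ccl21b and Ccl21c, had 533, 1002 and 532 reads in Null and 711, 609 and 613 in WT.

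Ccl27a, the gene of the skin chemokine, had 277, 310 and 245 reads in Null and 213, 304 and 258 in WT (0.12). Ccl27b had 62, 76 and 55 reads in Null and 50, 62 and 46 in WT (0.30), and in CPM its Null libraries lay just above its WT libraries. Gm13306 and Gm2506, which carry the same Entrez number as Ccl27b, had 118 to 125, 125 to 129 and 104 to 108 reads in Null and 88 to 89, 128 to 129 and 99 to 104 in WT. Ccl19, whose product is the other ligand of CCR7, had 14, 22 and 9 reads in Null and 24, 6 and 9 in WT, too few to compare at this depth. Its receptor gene Ccr7 had 4, 4 and 5 reads in Null and 3, 6 and 3 in WT. Ccr10, the receptor for CCL27, had 20, 30 and 26 reads in Null and 10, 19 and 16 in WT, and it too was under the floor, as were Ccrl1 and Cxcr3.

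The cytokine receptor genes are the other named family of the block. Il11ra1, the widely used alpha chain of the interleukin 11 receptor, had 935, 1277 and 1128 reads in Null and 1048, 1172 and 1102 in WT (log2 difference 0.01, SE 0.13). Il11ra2, a second copy whose transcripts are known from testis among other tissues, had 308, 412 and 400 reads in Null and 316, 366 and 329 in WT (0.15, SE 0.16). Gm13305 had 325, 418 and 412 reads in Null and 325, 381 and 347 in WT, and Gm2002 had 312, 408 and 396 in Null and 316, 363 and 328 in WT. The genotypes overlapped in all 4 rows.

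Cntfr, the alpha chain for ciliary neurotrophic factor, had 106, 157 and 321 reads in Null and 93, 136 and 84 in WT (0.79, SE 0.40). Null 3 set that value: without it the log2 difference was 0.33. The partners of these receptors described here, encoded elsewhere in the genome, did not pass limma's test. Il6st had a log2 difference of -0.11 (adjusted p = 0.755), Lifr of -0.07 (adjusted p = 0.82) and Clcf1 of 0.07 (adjusted p = 0.915), while the ligand genes Il11 and Cntf were under the floor.

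The named genes of the window outside these families are of varied kinds. Over the 21 tested named genes 15 differences were positive and 6 negative, with a median of 0.12 and a range of -0.22 to 0.79, and limma called 0; none had an unadjusted p below 0.05 in this fit, nor was one called by voom. In the 3 with the widest differences Null 3 was the high library. Nol6, a nucleolar protein gene of ribosome biogenesis, had 1329, 1140 and 3009 reads in Null and 987, 1529 and 897 in WT. Its log2 difference was 0.60 with all libraries and 0.14 without Null 3. Ubap2, a gene for a ubiquitin-associated domain protein, had 1708, 1522 and 3488 reads in Null and 1417, 1971 and 1329 in WT, a difference of 0.44 and of 0.05 without Null 3. The summed Sertoli cell markers were also highest in Null 3, at 869, 564 and 1040 CPM in Null and 703, 733 and 678 CPM in WT, and their part in these values was not tested.

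The other named genes had narrower differences. Vcp, an AAA ATPase that unfolds ubiquitinated proteins, had 10349, 9074 and 11062 reads in Null and 7989, 11478 and 9207 in WT (0.11). Galt, the galactose-1-phosphate uridylyltransferase gene, had 386, 392 and 293 reads in Null and 403, 435 and 410 in WT (-0.22), with all Null libraries just below WT in CPM. Enho, the gene of the peptide adropin, had 158, 158 and 175 reads in Null and 101, 163 and 140 in WT (0.32), with the Null libraries above WT in CPM by a narrow margin.

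Dnajb5, a heat shock protein 40 family gene, had 152, 139 and 237 reads in Null and 102, 176 and 158 in WT (0.28). Dcaf12, a substrate receptor gene of cullin ubiquitin ligases, had 2392, 1903 and 2597 reads in Null and 1921, 2247 and 1980 in WT (0.17). The ubiquitin-conjugating enzyme gene Ube2r2 had 2012, 1720 and 1916 reads in Null and 1671, 1994 and 1553 in WT (0.13). The genotypes overlapped in all 3. The ubiquitin-binding sorting gene Ubap1 (-0.04), the dynactin subunit gene Dctn3 (-0.12), the axonemal dynein gene Dnaic1 (-0.15) and the nucleotide hydrolase gene Nudt2 (-0.22) had small negative differences, and the genotypes overlapped in each. Aqp3, a water and glycerol channel gene, and Arid3c were under the floor.

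Binding of DMRT6 is a readout that the choice of the window did not use. In the adult testis list of the authors 15 peaks had their middle in the window, 7.50 per Mb (exact 95% Poisson interval 4.20 to 12.4), beside 6.69 per Mb (6.29 to 7.11) over the rest of chromosome 4. The interval from Gm17378 to Gm10592 held 4 of them, 4.71 per Mb (1.28 to 12.1). With 1 ChIP library there is no replicate check, and the intervals cover counting error only. The density in the window was not distinguishable from that of the chromosome at this number of peaks. Short reads that match several copies can be lost or shared in such a list, and how they were treated is not given in the sources used here.

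Few genes of the block had a peak near the 5′ end. A peak middle lay within 10 kb of the 5′ end for 13 of the 83 (15.7%), beside 27.9% of all rows. Copies and neighbours can share a peak, so the 83 are not independent and no interval is given. The share was 37.0% for the 27 named genes (10 genes) and 5.36% for the 56 provisional ones (3 genes), and it was 0 of 19 for the genes with no overlap and a difference of at least 1. Among named genes a peak lay 180 bp upstream of Ube2r2 (score 84.3), and the peak of highest score in the window, 299, lay within Cntfr, 18640 bp from the 5′ end. Another peak lay nearer to the 5′ end of Cntfr, at 1679 bp, and it is the peak given below for Il11ra1. Scores are the authors' own values and their scale is not stated. The 3 provisional genes with a peak were Gm13305 and Gm2002, copies of Il11ra2, and Gm1987, a copy of Ccl21a, whose peak lay 2444 bp downstream of the 5′ end (score 81.2).

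The interleukin 11 receptor rows had the most regular arrangement. A peak lay 1221 bp upstream of Il11ra1 (chr4:41645722-41645878, mm9, score 115), 1280 bp upstream of Gm13305 (chr4:42040503-42040708, score 99.2), 1246 bp upstream of Gm2002 (chr4:42337918-42338110, score 174) and 1240 bp upstream of Il11ra2 (chr4:42680441-42680629, score 160). All 4 rows thus had a peak at a similar distance, and peaks over near-identical copies are not independent observations. The peak of Il11ra1 is also the one nearest the 5′ end of Cntfr, which lies on the opposite strand. Il11ra1 and Il11ra2 themselves had no close match between their RefSeq promoters, with 34.0% of 200 bases identical in the best ungapped alignment. None of these genes was called different between genotypes at P8, and the ChIP came from adult testis, so the 2 readouts are set side by side without a test.

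**Figure D4:**
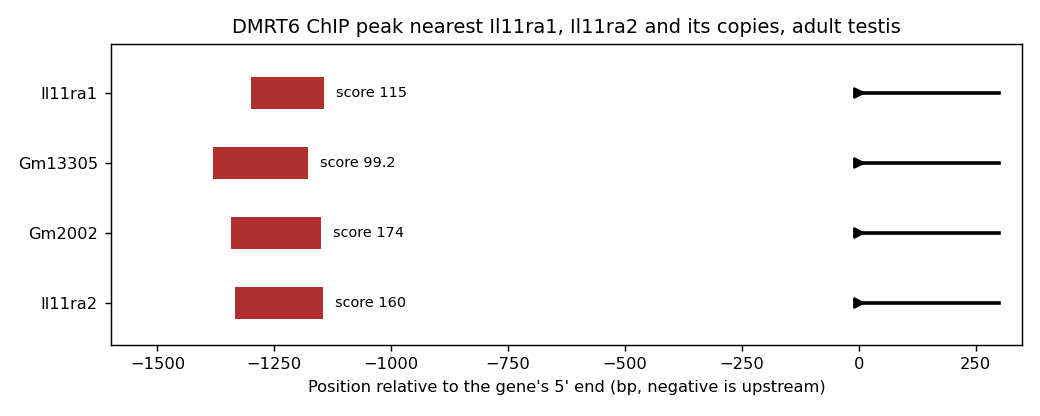
ChIP peaks (red bars) relative to the 5′ end (arrow at 0, gene body to the right) of Il11ra1, Gm13305, Gm2002 and Il11ra2, in bp with negative values upstream, with the authors' score beside each. All 4 peaks lie between 1221 and 1280 bp upstream by their middles.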

How the data were processed

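The authors deposited 1 table of log2 CPM values for 22744 Ensembl genes in the 6 RNA libraries, and 1 peak list with a score per peak for the ChIP and input libraries. Per the submitters' processing notes the tools were STAR 2.3.0e, Bowtie2, Picard and edgeR and the build mm9, with no role given; the counter, annotation release, use of strand and treatment of multiply matching reads are not stated there. Whole reads were recovered from the steps of the deposited log2 values: 100% of values were whole at a tolerance of 1e-06, with a prior of 0.223 to 0.274 reads. CPM is relative to a scaling total of 97.9% to 100.8% of a library's table reads. ChIP and input depth are unknown.

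Differences are Null minus WT on the authors' log2 CPM scale, which understates those of genes with few reads. Limma-trend (limma 3.58.1, R 4.3.3) with genotype only was fitted to the 16634 genes with a mean of at least 0, Benjamini-Hochberg adjusted over all of them (threshold 0.05), and tested on simulated data. SE is the model's, SD that of 3 libraries; genes under the floor have no SE. An exact permutation of 3 against 3 was not used. P-values measure the spread between these libraries. A peak is placed by its middle; a 5′ end is the outer coordinate of the gene. Alternatives were other filters, voom, quantile normalization, median centring, array weights, the replicate block and each library left out.

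The window, lists and naming rule were chosen with earlier results of these data known. The rule named the 20 tested provisional genes of widest difference, a list of gene names, partners of the receptors and the flanking genes of smallest p, 2 per side. Symbols and promoters came from RefSeq tables. IDs of 49 of the 83 genes were in the gene name table, which names 11 of them differently. It gives the ID of Gm13301 the symbol Gm10600, the name of another row described above. Proteins were not used here. Results of 2 genes that the rule names are not reported here.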

Additional observations from a re-analysis of the deposited data

How the results depend on the processing

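Main counts past the threshold were 1 gene in all and 1 in the window. They were 3 and 2 with no filter (Gm13300 added), 0 and 0 with a mean of at least 2 (Gm5859 not tested), 2 and 1 after quantile normalization, 3 and 2 after median centring (Gm10599 added), and 136 and 10 with array weights. Leaving out each library in turn gave 0 to 5 and 0 to 3, lowest without Null 1 and highest without Null 3; without WT 2 the total was 2. The fit with a replicate block called 2 genes, 1 of them in the window; same-numbered libraries had correlated deviations of -0.09, -0.22 and -0.04, so numbers were not taken as pairs. No flanking gene was called in any of these fits. The median log2 difference of the tested window genes was 0.12 to 0.32 over all fits and that of the flanking genes -0.07 to -0.01, and the summed log2 CPM ratio of provisional genes, 0.44, was 0.24 to 0.55 with a library left out and 0.84 without copies of named genes. Genes with a peak numbered 1 within 1 kb and 46 within 50 kb, against 13 within 10 kb. Of 516 recomputed differences of 41 named genes, 7 moved by more than 1 SD; with array weights Il11ra1 (-0.20) and Il11ra2 (-0.09) turned negative. The causes were not tested. Depth limits the genes under the floor, where 3 reads are 0.103 to 0.126 CPM.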
